A study of Homo sapiens with 8 samples.

Results

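YAP1 and WWTR1 (TAZ), their DNA-binding partner TEAD1, and 7 genes known as targets or regulators of this axis were followed in A549, a long-established human cell line from a lung adenocarcinoma. The 10 genes were taken by symbol from the 57820 genes of each deposited gene table, by a rule that uses no measured value. The list itself was chosen with earlier results of these data known. All 10 were found once, had reads in each library and passed the filter on low counts. The 8 libraries form 4 groups of 2 with replicates A and B. In the overexpression experiment, the groups are an empty vector and a vector for overexpression of MGA, which is a repressor that binds DNA as a pair with MAX, the partner of MYC. In the knockdown experiment, the groups are siNC, a negative control siRNA, and siMYC, an siRNA that silences MYC. The sources used here do not give the promoter of the vector, the siRNA sequences, the hours of treatment or whether the cells were clones or pools. They also do not say whether replicates were separate cultures. The p-values then measure only the spread between these libraries, which may be technical.

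In the Hippo pathway, the kinases STK3 and STK4 with the adaptor SAV1 activate the kinases LATS1 and LATS2, which phosphorylate YAP and TAZ and keep them in the cytoplasm. Unphosphorylated YAP and TAZ enter the nucleus, where they bind TEAD factors and switch on genes such as CTGF (now named CCN2), CYR61 (CCN1) and ANKRD1, which serve as the usual readouts of the axis. Several targets, among them LATS2 and AMOTL2, act back on the pathway as brakes. In lung epithelium the axis responds to cell density, stretch and attachment. The RNA level of YAP1, WWTR1 or TEAD1 does not show how much of the protein is in the nucleus.

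Promoter stretches of 6 of the genes are shown because they hold the short motif that TEAD factors bind, GGAATG or its reverse complement CATTCC, beside genes that responded and genes that did not. They come from RefSeq (GRCh38.p14), are written 5′ to 3′ on the strand of the gene, and carry the searched motifs in capitals.
AMOTL2, chr3:134374499-134374528, minus strand: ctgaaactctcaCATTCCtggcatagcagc
AJUBA, chr14:22976884-22976913, minus strand: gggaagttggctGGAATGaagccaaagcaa
ANKRD1, chr10:90921290-90921319, minus strand: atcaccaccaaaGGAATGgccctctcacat
ANKRD1, chr10:90921198-90921227, minus strand: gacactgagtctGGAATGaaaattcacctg
AXL, chr19:41226505-41226604, plus strand: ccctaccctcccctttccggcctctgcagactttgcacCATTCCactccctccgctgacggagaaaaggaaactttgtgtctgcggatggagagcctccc
CTGF, chr6:131951452-131951551, minus strand: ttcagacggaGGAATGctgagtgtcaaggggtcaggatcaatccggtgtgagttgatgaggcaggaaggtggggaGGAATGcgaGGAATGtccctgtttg
YAP1, chr11:102110217-102110316, plus strand: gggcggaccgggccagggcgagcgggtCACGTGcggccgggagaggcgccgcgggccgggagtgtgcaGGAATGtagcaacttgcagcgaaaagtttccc
CTGF holds 3 copies, 2 of them 9 bases apart, ANKRD1 holds 2, and the others hold 1. YAP1 also holds CACGTG, the E-box bound by MYC-MAX and MGA-MAX pairs. In the GENCODE v29 annotation, the AMOTL2, AJUBA and second ANKRD1 stretches overlap an annotated UTR exon of the gene itself. The AJUBA stretch also overlaps the gene AL132780.3 on the same strand, outside its exons. The AXL stretch overlaps the AXL gene outside its exons. The CTGF stretch overlaps an antisense gene (AL133346.1) outside its exons, and the YAP1 stretch overlaps an exon of the antisense gene AP001527.2.

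RefSeq windows running from 250 bases before to 50 bases after a start site were found for 8 of the 10 genes, 12 windows in all. GGAATG or CATTCC was in at least 1 window of 7 of these 8 genes (YAP1, CTGF, ANKRD1, AMOTL2, AXL, LATS2 and AJUBA), against 16.7% of 27305 genes with a window. By windows, it was in 7 of 12, against 14.0% of 35116. For AMOTL2, AJUBA and AXL the stretch shown lies in the window of a downstream start site, and their upstream window held no copy. CACGTG, which reads the same on both strands, was in a window of YAP1 and of LATS2, against 8.78% of genes. The T-box motif TCACACCT, searched with its reverse complement, was in 0 of the 12 windows and in 1.21% of genes. WWTR1 held none of these letters. Most of these genes were listed because they are known TEAD targets, so the motif count is a description, and a match of letters is not a bound site.

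Library depth was low, between 820428 and 2129006 expected counts, so that ANKRD1 rested on 13 to 46 reads a library and AXL on 314 to 861. The targeted genes moved as labelled: MGA stood at 101.6 ± 28.3 CPM with the empty vector and 103093 ± 902 CPM with the MGA vector (SD, n = 2), and MYC at 201 ± 26.0 CPM with siNC and 44.7 ± 5.05 CPM with siMYC. MYC had a log2 fold change of 0.43 with MGA (adjusted p = 0.025), which was not called when either empty vector library or MGA replicate B was left out (0.32 to 0.45), nor with DESeq2, upper-quartile factors, library sizes alone or TPM. CPM is the count scaled to library size with TMM factors. Of 5 epithelial markers (KRT8, KRT18, KRT19, CDH1 and EPCAM), summed TPM was 2626 to 2926 over the overexpression libraries and 4638 to 5778 over the siRNA libraries. Between the control groups, KRT8, KRT18, KRT19 and EPCAM were lower and CDH1 higher with the empty vector. Of 4 endothelial markers 3 were found in the tables, and these were listed at 0, as were the leukocyte markers PTPRC and CD3E. CD68, a lysosomal protein of macrophages and other cells, was at 193 ± 6.86 CPM with the empty vector and at 20.6 ± 1.13 CPM with siNC. Of 6 fibroblast markers DCN was listed at 0.

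With MGA overexpression, AMOTL2, AJUBA, ANKRD1 and AXL rose and no other of the 10 genes passed the test. These 4 of 10 compare with 4.96% of the 11218 genes tested that were called higher, and with 8.96% called in either direction, at an adjusted p under 0.05 in edgeR. The libraries of the 2 groups did not overlap for 5 of the 10, against 52.6% of all genes. The median log2 fold change of the 10 was 0.26, against 0.01 over all genes tested. In bulk RNA, a difference in the share of cells that express a gene and a difference in RNA per cell cannot be told apart.

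With siMYC, CYR61, AMOTL2, YAP1 and AXL fell and LATS2 rose. These 5 of 10 compare with 39% of all genes called in that comparison (20% lower and 19% higher), so the share called lies near the background. The libraries did not overlap for 6 of the 10, against 67.6% of all genes. The median of the 10 was -0.09, against 0.01 over all genes. AMOTL2 and AXL thus rose in one experiment and fell in the other, and for both the difference between the responses passed its own test. The experiments share no libraries.

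**Figure D1:**
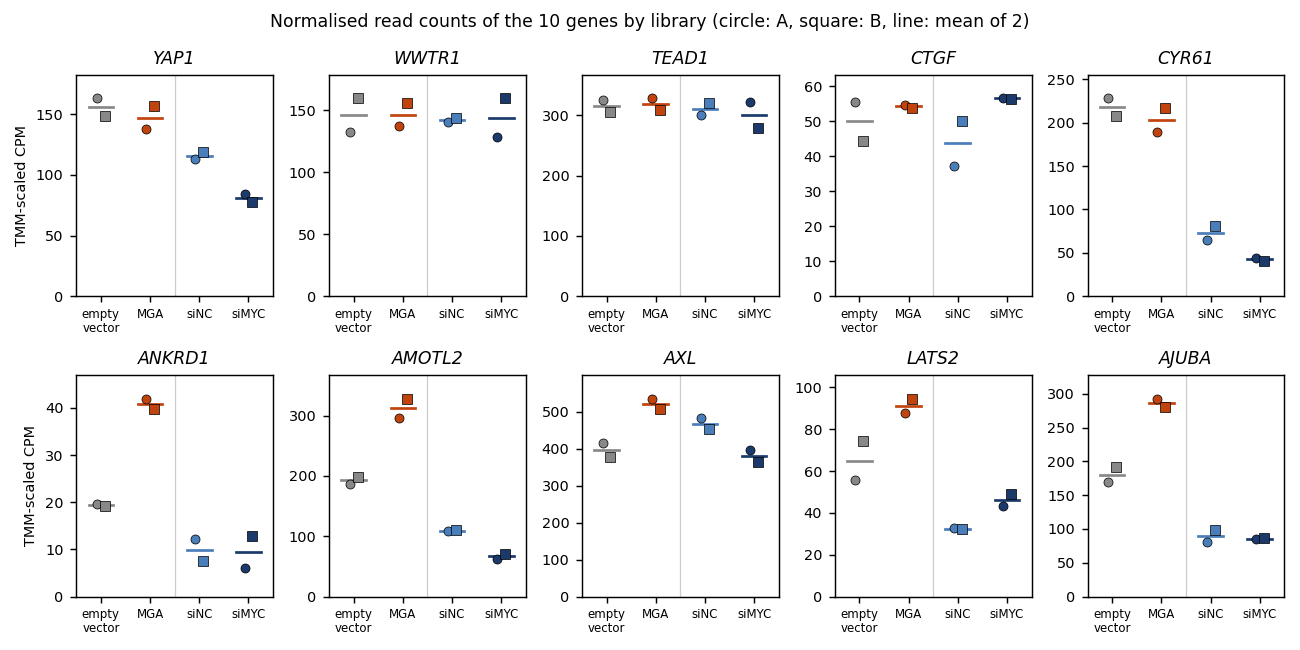
TMM-scaled CPM of the 10 genes in each of the 8 libraries (circles, replicate A; squares, replicate B; lines, mean of 2), on linear axes that start at 0. AMOTL2, AJUBA, ANKRD1 and AXL sit higher with MGA than with the empty vector, and CYR61, AMOTL2, YAP1 and AXL sit lower with siMYC than with siNC.

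Among the factors, YAP1 (ENSG00000137693.9), the coactivator, stood at 163 and 149 CPM with the empty vector and at 138 and 157 CPM with MGA. These pairs overlap, and the log2 fold change was -0.09 (SE 0.14, 95% interval -0.37 to 0.19). In the knockdown experiment YAP1 was at 113 and 119 CPM with siNC and at 84.6 and 77.9 CPM with siMYC. Both siMYC libraries lay below both siNC libraries, a fall of 0.51 on the log2 scale (SE 0.13, adjusted p = 0.0024), or 1.42-fold, and DESeq2 did not call it (adjusted p = 0.081). The difference between the 2 responses of YAP1 was 0.42 and did not pass (adjusted p = 0.13). YAP1 thus changed in the knockdown experiment without being shown to respond differently in the other.

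WWTR1 (ENSG00000018408.10), which encodes the YAP paralog TAZ, was at 132 and 159 CPM with the empty vector, 137 and 155 with MGA, 141 and 143 with siNC and 128 and 160 with siMYC. All 4 groups overlap. Its log2 fold change was 0.00 (95% interval -0.31 to 0.31) with MGA and 0.01 (-0.25 to 0.26) with siMYC. On log2(TPM + 1) the MGA value of WWTR1 was 0.60 (limma-trend, adjusted p = 0.16). In TPM both MGA libraries lay above both empty vector libraries, and their mean transcript lengths were shorter, as given beside AMOTL2. TEAD1 (ENSG00000187079.10), the DNA-binding partner, was at 325 and 306 CPM with the empty vector, 328 and 310 with MGA, 300.05 and 321 with siNC and 323 and 279 with siMYC. Its log2 fold change was 0.02 with MGA (95% interval -0.21 to 0.24) and -0.04 with siMYC (-0.24 to 0.15). Neither coactivator gene nor TEAD1 was called with MGA, the setting in which 4 listed targets and regulators rose.

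Among the readout genes, CTGF (ENSG00000118523.5), a secreted matrix-associated growth factor, was at 55.6 and 44.4 CPM with the empty vector and 54.7 and 53.7 with MGA. The groups overlap (log2 fold change 0.12, 95% interval -0.33 to 0.56). With siNC it was at 37.1 and 50.2 CPM and with siMYC at 56.5 and 56.5. Both siMYC libraries were the higher, yet the difference of 0.35 (SE 0.17) did not pass (adjusted p = 0.11). Without siNC replicate B it was 0.59 (adjusted p = 0.047), and without siNC replicate A it was 0.17 (adjusted p = 0.56). CTGF, with the most GGAATG copies of the genes shown, was called in neither experiment.

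CYR61 (ENSG00000142871.11), a CCN family relative of CTGF, was at 228 and 207 CPM with the empty vector and 189 and 217 with MGA. These overlap, with a log2 fold change of -0.11 (95% interval -0.38 to 0.16). With siNC it was at 64.3 and 81.1 CPM and with siMYC at 44.6 and 41.1. Both siMYC libraries lay below both siNC libraries, a fall of 0.77 on the log2 scale (SE 0.16, adjusted p = 0.00043) or 1.70-fold. The difference between the responses was 0.66 (SE 0.21, adjusted p = 0.027). That last call was lost with upper-quartile factors, with library sizes alone, without the MGA gene in the counts, with DESeq2, on TPM, and without empty vector replicate B, MGA replicate B, siNC replicate B or siMYC replicate B in turn (differences of 0.48 to 0.61). So CTGF and CYR61, both CCN genes, had log2 fold changes of opposite sign with siMYC, of which only that of CYR61 passed.

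ANKRD1 (ENSG00000148677.6), a nuclear and sarcomeric ankyrin repeat protein, was at 19.7 and 19.2 CPM with the empty vector and 42.0 and 39.7 with MGA. The pairs are far apart relative to their own spread, 2.1-fold on average (SE 0.32 around a log2 value of 1.07, adjusted p = 0.033). The call was lost without each of the 4 overexpression libraries in turn, while the log2 fold change stayed between 1.03 and 1.11 and the adjusted p was 0.11 to 0.19. DESeq2 gave no adjusted p for ANKRD1 there. With siNC ANKRD1 was at 12.1 and 7.58 CPM and with siMYC at 5.97 and 12.9, which overlap (log2 fold change -0.10, 95% interval -0.89 to 0.69). ANKRD1 rested on 13 to 21 reads a library there, and a change within that interval cannot be told from 0. The difference between the responses was 1.17 (SE 0.51) and did not pass (adjusted p = 0.11). It was 1.76 (adjusted p = 0.026) without siMYC replicate B and 0.66 (adjusted p = 0.43) without siMYC replicate A.

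AMOTL2 (ENSG00000114019.10), an angiomotin family scaffold of cell junctions that binds YAP, was at 186 and 199 CPM with the empty vector and at 296 and 328 with MGA. It was at 109 and 109.6 CPM with siNC and at 62.0 and 71.2 with siMYC. In each experiment the groups are separate and lie in opposite order. AMOTL2 was 1.61-fold higher with MGA (0.69 on the log2 scale, SE 0.12, adjusted p = 0.00030) and 1.65-fold lower with siMYC (-0.72, SE 0.13, adjusted p = 9.75e-05). The difference of 1.41 (SE 0.18, 95% interval 1.04 to 1.78, adjusted p = 2.3e-06) was the largest among the 10 genes, and no omission of a single library ended it. On log2(TPM + 1) the MGA difference of AMOTL2 was 0.32 and its call was lost (adjusted p = 0.64).

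The deposited TPM of AMOTL2 was 64.2 and 140.5 in empty vector replicates A and B, although their expected counts were 161 and 166. TPM divides counts by a length that RSEM averages over the isoforms it assigns. That length was 4422 bases in empty vector replicate A and 2224 in replicate B, and 3622 to 4470 in the other 6 libraries. WWTR1 showed a similar spread, at 1914 bases in MGA replicate A and 2733 to 4136 in the other 7, with a TPM of 118 in that library against 62.4 to 90.6 elsewhere. CTGF and ANKRD1 had 1 length in all 8 libraries. At this depth the isoform shares rest on few reads, and whether isoform use differed was not tested.

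AXL (ENSG00000167601.7), a receptor tyrosine kinase of the TAM family, was at 414 and 377 CPM with the empty vector and at 536 and 507 with MGA. It was at 484 and 453 CPM with siNC and at 396 and 363 with siMYC. Again the groups of each experiment are separate and lie in opposite order. The rise with MGA was 1.32-fold (0.40 on the log2 scale, SE 0.10, adjusted p = 0.0093) and the fall with siMYC 1.23-fold (-0.30, SE 0.09, adjusted p = 0.0085). The difference was 0.70 (SE 0.13, adjusted p = 0.00040), and no omission of a single library ended that call. The calls within an experiment were weaker: the rise with MGA was lost when either empty vector replicate B (0.33, adjusted p = 0.16) or MGA replicate A (0.36, adjusted p = 0.13) was left out. The fall with siMYC was lost when either siNC replicate A (-0.25, adjusted p = 0.058) or siMYC replicate B (-0.25, adjusted p = 0.061) was left out, and with DESeq2 (adjusted p = 0.12).

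Among the regulators, LATS2 (ENSG00000150457.7), the kinase that inhibits YAP and is itself a YAP target, was at 55.6 and 74.3 CPM with the empty vector and at 87.6 and 94.6 with MGA. The groups are separate, but the log2 fold change of 0.49 (SE 0.18) did not pass (adjusted p = 0.10). With siNC LATS2 was at 32.9 and 32.1 CPM and with siMYC at 43.2 and 49.1. LATS2 was 1.41-fold higher with siMYC (0.50 on the log2 scale, SE 0.19, adjusted p = 0.036), and the call was lost without siNC replicate A, siNC replicate B or siMYC replicate B in turn (0.41 to 0.51, adjusted p = 0.091 to 0.17), with no filter on low counts and with DESeq2. The difference between the responses of LATS2 was -0.01 (95% interval -0.53 to 0.51). The value with MGA moved with the control library kept, to 0.29 when empty vector replicate A was left out and to 0.70 when replicate B was.

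AJUBA (ENSG00000129474.11), a LIM protein that binds LATS kinases and limits their action on YAP, was at 169 and 192 CPM with the empty vector and at 293 and 280.4 with MGA. Both MGA libraries lay far above the controls, 1.59-fold on average (log2 value 0.67, SE 0.12, adjusted p = 0.00066). The call held without each of the 8 libraries in turn (0.58 to 0.76) and was lost on TPM (0.74, adjusted p = 0.095). With siNC AJUBA was at 80.7 and 98.6 CPM and with siMYC at 84.6 and 87.1, with the siMYC values inside the siNC range (log2 fold change -0.07, 95% interval -0.35 to 0.21). The difference between the responses was 0.74 (SE 0.18, adjusted p = 0.0051). It was 0.59 without siNC replicate B (adjusted p = 0.057) and 0.70 with DESeq2 (adjusted p = 0.063).

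**Figure D2:**
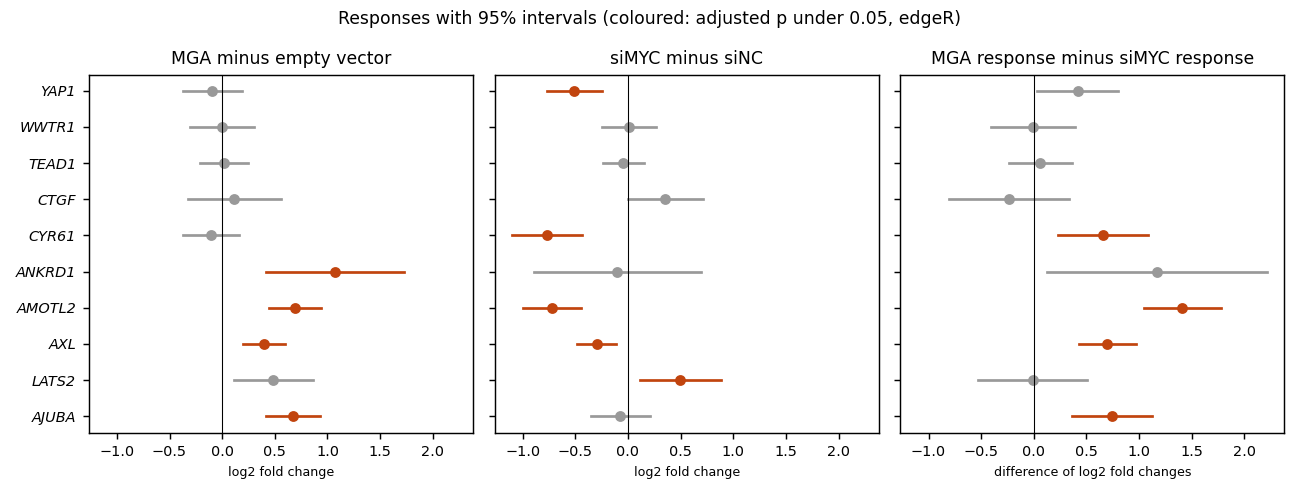
Log2 fold changes of the 10 genes with MGA and with siMYC, and the difference between these responses, from the edgeR fit (points, estimates; bars, 95% intervals; coloured where the adjusted p was under 0.05). AMOTL2 and AXL lie right of 0 with MGA and left of 0 with siMYC, whereas WWTR1 and TEAD1 lie near 0 in each panel.

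Over the 10 genes, the difference between the responses was called for 4 (AMOTL2, AXL, AJUBA and CYR61), each with a higher value for the MGA response. Over all genes tested, 18.5% were called for this difference, 10.3% in that direction and 8.22% in the other. The scaling bears on the MGA comparison, since the MGA gene took 9.54% and 9.68% of the counts of its libraries: with library sizes alone the median of all genes moved to -0.12, and AMOTL2 and AJUBA kept their calls while ANKRD1 (0.94, adjusted p = 0.06) and AXL (0.27, adjusted p = 0.078) lost theirs. On log2(TPM + 1) with limma-trend, 0 of the 10 were called in each of these 3 comparisons.

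The 2 control groups differed in most of these genes, and here experiment and group cannot be told apart. Between empty vector and siNC libraries, 6 of the 10 genes were higher in the empty vector libraries and 0 lower, against 15.4% and 18% of all genes tested (33.4% in either direction). The libraries did not overlap for 7 of the 10, against 65.6% of all genes. CYR61 was 2.97-fold higher (log2 difference 1.57, SE 0.14, adjusted p = 5.6e-10), AJUBA 2.0-fold (adjusted p = 1.5e-06) and AMOTL2 1.76-fold (adjusted p = 1.2e-05). LATS2 was higher by 1.0 and YAP1 by 0.43 on the log2 scale. ANKRD1, higher by 1.0 (adjusted p = 0.048), lost its call without any of 5 libraries (empty vector A or B, MGA A or B, siNC B; 0.65 to 0.997), and YAP1 without 3 (empty vector A, siNC A, siNC B; 0.33 to 0.44). DESeq2 called neither ANKRD1 (adjusted p = 0.21) nor YAP1 (adjusted p = 0.097). AXL was lower by 0.24 on the log2 scale and did not pass (adjusted p = 0.053), while CTGF (0.18), WWTR1 (0.03) and TEAD1 (0.02) differed by less than their intervals. The responses to MGA and to siMYC therefore started from unequal levels of CYR61, AJUBA, AMOTL2 and LATS2. Whether the starting level bears on the response was not tested.

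Between genes, levels were compared in the deposited TPM, a unit corrected for transcript length. With siNC, AXL was highest at 156 ± 11.1 TPM, followed by WWTR1 (69.0 ± 8.55 TPM), TEAD1 (62.9 ± 2.82), CYR61 (49.2 ± 7.19), AMOTL2 (40.8 ± 5.52), YAP1 (38.1 ± 0.93), AJUBA (32.6 ± 1.75), CTGF (28.8 ± 5.60), LATS2 (9.74 ± 1.85) and ANKRD1 (7.88 ± 2.71; SD, n = 2). Of the 9 neighbouring pairs in that order, 5 had libraries that overlapped and so do not differ beyond their spread. With the empty vector, CYR61 came first at 151 ± 12.8 TPM, with AXL at 133 ± 10.1 and ANKRD1 last at 15.9 ± 0.56, and 6 of 9 neighbouring pairs overlapped. With MGA, AXL (178 ± 4.79 TPM) lay above CYR61 (146 ± 11.2) and AJUBA (125 ± 9.02) came next. With siMYC, AXL stayed first (146 ± 8.50 TPM), TEAD1 (69.9 ± 13.3) and WWTR1 (63.1 ± 0.56) followed, and AMOTL2 lay eighth at 24.8 ± 1.97. Between the paralogs, WWTR1 exceeded YAP1 in both libraries of the MGA, siNC and siMYC groups, whereas the empty vector libraries overlapped (62.4 and 73.8 against 73.3 and 48.8 TPM).

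**Figure D3:**
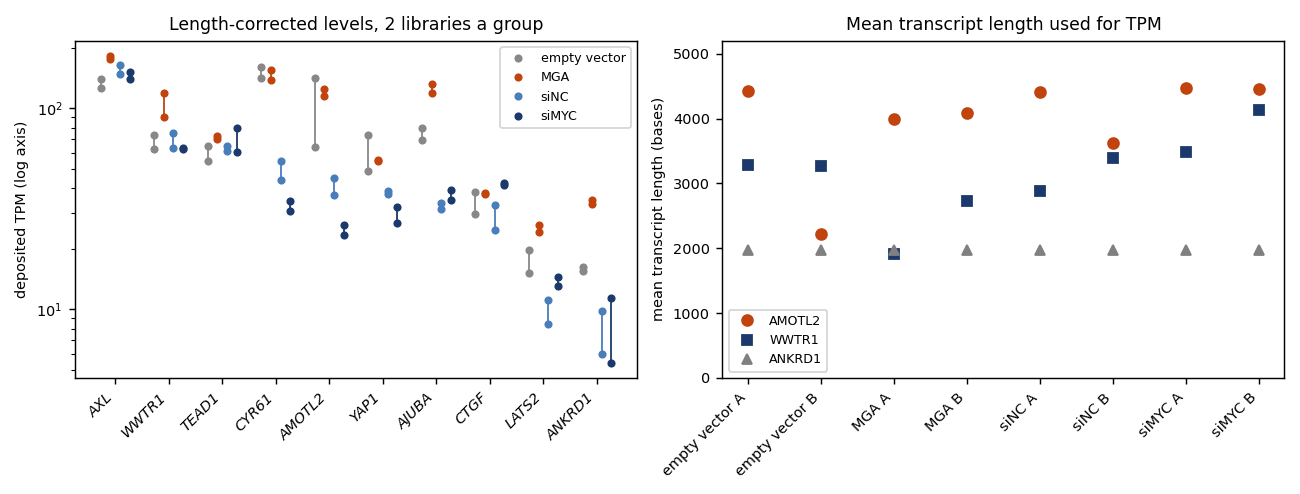
Left, deposited TPM of the 10 genes on a log axis, ordered by their mean with siNC (points, libraries; lines join the 2 libraries of a group); AXL lies at 126 to 181 TPM in each library and ANKRD1 at 5.42 to 35.0. Right, the mean transcript length behind the TPM values of AMOTL2, WWTR1 and ANKRD1, with AMOTL2 at 2224 bases in empty vector replicate B.

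Other genes of the pathway came from lists of the kinases and adaptors, the TEAD partners, further targets of a published YAP-TAZ signature, and the remaining CCN and TAM family genes. Of 21 tested kinases and adaptors, 4 rose and 0 fell with MGA, against 4.96% and 4% of all genes tested, with a median log2 fold change of 0.25 against 0.01. FRMD6, a membrane-linked activator of the pathway, went up from 151 ± 5.42 CPM to 297 ± 11.1 CPM, or 1.97-fold (SE 0.13 on the log2 scale, adjusted p = 6.05e-06). PTPN14, a phosphatase that binds YAP and is also in the target signature, rose from 148 ± 2.15 to 250.1 ± 13.1 CPM, and SLMAP, a subunit of the STRIPAK phosphatase complex, from 69.1 ± 10.9 to 133 ± 17.3 CPM. The fourth, SAV1, named after its values were seen, had a log2 fold change of 0.72. Leaving out empty vector replicate A, empty vector replicate B or MGA replicate A ended the SAV1 call (0.56 to 0.78), as did library sizes alone and DESeq2. SLMAP was not called when empty vector replicate A was left out (0.78, adjusted p = 0.069). DESeq2 called 3 of the 21 higher and 0 lower, and limma-trend on TPM called 0.

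With siMYC, 2 of the 21 kinases and adaptors rose and 3 fell, with a median of 0.02. Over all genes 19% rose and 20% fell, so the calls in this list are no more frequent than the background. PTPN14 rose here as well, 2.63-fold, from 75.6 ± 6.27 CPM to 196 ± 33.0 CPM (1.39 on the log2 scale, SE 0.13, adjusted p = 2.7e-09), and so did MAP4K4, a kinase that acts on LATS (0.43). STK4 fell from 80.9 ± 4.77 to 47.2 ± 6.02 CPM (-0.76, adjusted p = 0.00035). AMOT did not pass the filter on low counts. The other called genes, named after their values were seen, were SAV1 (-0.92) and WWC1 (-0.36), both lower. The WWC1 call was lost without siMYC replicate B and with DESeq2. DESeq2 called 2 of the 21 higher and 2 lower with siMYC. Limma-trend on TPM called 2 higher and 0 lower, so that STK4, SAV1 and WWC1 were not called lower there.

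Of 5 tested TEAD partners and cofactors, 0 were called with MGA by edgeR, and 0 had an unadjusted p under 0.05. DESeq2 and limma-trend on TPM also called 0. With siMYC 2 rose and 1 fell, in a comparison that called 39% of all genes about evenly in each direction. TEAD2 rose from 19.9 ± 0.12 to 39.6 ± 1.26 CPM (log2 fold change 0.99) and VGLL4, a cofactor that competes with YAP for TEAD, from 24.0 ± 5.65 to 47.5 ± 7.42 CPM (0.95). TEAD4 fell from 37.3 ± 4.20 to 20.1 ± 8.91 CPM (-0.95, adjusted p = 0.0023), a call that was lost without siMYC replicate A (-0.51, adjusted p = 0.14). With DESeq2, TEAD2 (adjusted p = 0.08) and TEAD4 (adjusted p = 0.11) were not called. Limma-trend on TPM called 0 of the 5 higher and 1 lower with siMYC, so that TEAD2 and VGLL4 were not called there.

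Of 15 tested further signature targets, 5 rose and 3 fell with MGA, against 4.96% and 4% of all genes, with a median log2 fold change of -0.07. GADD45A, a stress response gene, rose from 371 ± 31.7 to 803 ± 25.5 CPM (fold change 2.17, adjusted p = 7.1e-08), and IGFBP3, an IGF-binding protein, fell from 508 ± 4.85 to 303 ± 3.81 CPM (-0.75, SE 0.10, adjusted p = 8.5e-06). With siMYC 5 rose and 2 fell, a share near the 39% of all genes called, with a median of 0.09. CCDC80, a matrix protein, rose from 125 ± 6.17 to 383 ± 7.88 CPM (1.61, SE 0.11, adjusted p = 2.9e-12) and TGFB2, a TGF-beta ligand, from 97.3 ± 8.33 to 271 ± 14.1 CPM (1.47). On TPM, GADD45A was not called with MGA (limma-trend, adjusted p = 0.071). DESeq2 called 3 of the 15 higher and 1 lower with MGA, and limma-trend on TPM called 0 higher and 1 lower. With siMYC, DESeq2 called 4 higher and 1 lower, and limma-trend on TPM 3 higher and 1 lower. Between the controls, 7 of these 15 were higher with the empty vector than with siNC and 2 lower, against 15.4% and 18% of all genes. GADD45A was 10.5-fold higher and CCDC80 2.29-fold lower there. Of the 21 kinases and adaptors, 4 were higher and 4 lower, with FRMD6 2.79-fold higher. Whether the starting level bears on these responses was not tested.

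Beside the siMYC values above, the summed TPM of the 6 fibroblast markers was 87.0 to 87.7 with siMYC against 10.9 to 20.3 with siNC. COL1A1, the fibroblast marker that passed the filter on low counts, was at 34.8 ± 16.8 CPM with siNC and 168 ± 5.92 with siMYC, while DCN was listed at 0. CD68 was at 37.5 ± 1.66 CPM with siMYC and 20.6 ± 1.13 CPM with siNC. Their part in the siMYC values was not tested. Of the 4 tested CCN and TAM family genes, 0 were called with MGA, also by DESeq2 and by limma-trend on TPM, and 0 had an unadjusted p under 0.05. GAS6, the AXL ligand, and PROS1, a ligand of related receptors, were called higher with siMYC. GAS6 went from 10.7 ± 1.99 to 20.3 ± 0.78 CPM (0.93, adjusted p = 0.020) and lost its call without siNC replicate B, siMYC replicate A or siMYC replicate B (0.72 to 0.97). PROS1 (0.54, adjusted p = 0.046) lost its call without each library but siNC replicate B in turn (0.29 to 0.58), and DESeq2 called neither gene. WISP1, WISP3, NOV and MERTK did not pass the filter.

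**Figure D4:**
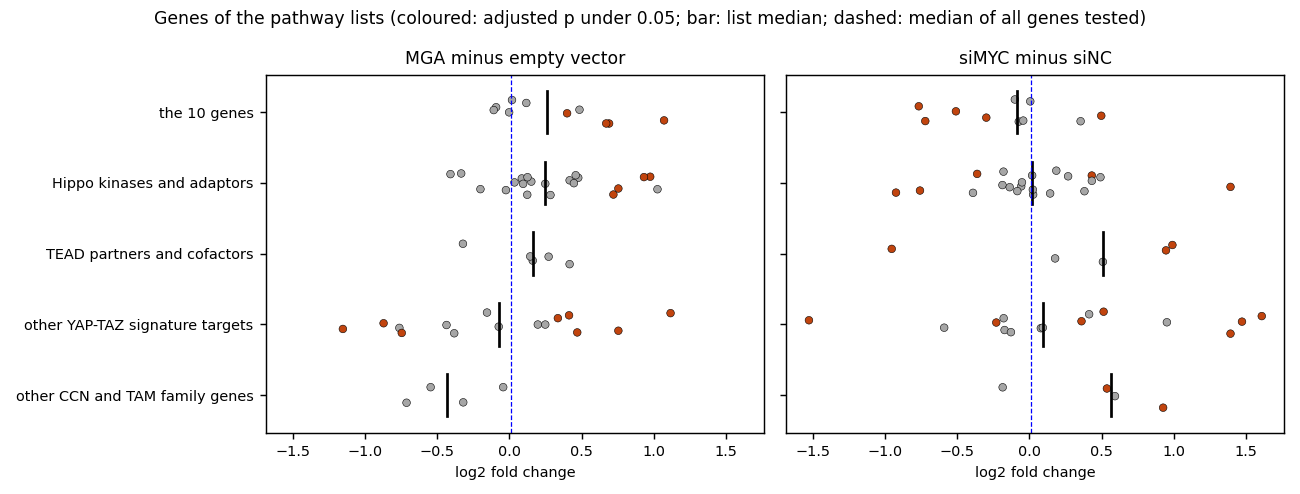
Log2 fold changes of the 10 genes and of the other tested genes of the pathway lists with MGA (left) and with siMYC (right); points are genes, coloured where the adjusted p was under 0.05, bars are list medians and the dashed line is the median of all genes tested (0.01 in both). The further signature targets spread to both sides of 0, from -1.15 to 1.1 with MGA and from -1.53 to 1.61 with siMYC.

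The genes whose pattern over the 8 libraries lay closest to YAP1, CTGF, CYR61 and AXL were found by the root mean square difference of centred log2 CPM among 10576 other genes. For YAP1 they were QSOX2 (0.072) and SLC20A1 (0.099), for CTGF C5orf15 (0.058) and RDH11 (0.070), for CYR61 PLCG2 (0.17) and PSME2 (0.18), and for AXL TMEM51 (0.071) and WBP11 (0.073). None of these nearest genes is in the pathway lists. Those lists hold only 21, 5, 15 and 4 tested genes, so no conclusion is drawn from their absence.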

How the data were processed

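Poly(A)-selected RNA of 8 A549 libraries was sequenced. Per the submitters' processing notes the tools were STAR and RSEM and the build was hg19. Their versions and the annotation used are not given in the sources at hand. Per the file headers, the authors deposited expected counts (RSEM estimates that divide reads shared by several genes), TPM, FPKM and mean transcript lengths for 57820 genes. Whether counting used strand is not stated, so genes that overlap another gene (YAP1 and AP001527.2 near the start site, for example) carry that uncertainty. Expected counts were rounded, filtered with filterByExpr (minimum count 10, minimum total 15; 11218 genes left), scaled by TMM and fitted in 1 edgeR 4.0.16 quasi-likelihood model (R 4.3.3) of 4 groups with 4 residual degrees of freedom. Deposited TPM served for levels between genes. FPKM was also ordered, but it differs from TPM by a constant factor within a library, so it cannot check that order. Adjusted p-values are Benjamini-Hochberg over all genes tested, two-sided, and from edgeR unless another tool is named; calls are at an adjusted p under 0.05. The SE is the log2 fold change divided by the root of F. Tests and intervals use the residual degrees of freedom plus prior ones that edgeR estimates from the spread of all genes. With 2 libraries a group, the smallest p that exact permutation allows is 0.333, so no such test is given. The chi-square per degree of freedom between replicates was above sampling noise in every group, and all 8 libraries were kept. It was 1.18 (empty vector), 1.13 (MGA), 1.82 (siNC) and 1.85 (siMYC). The edgeR coefficient of variation between replicates was 0.062 in the joint fit. It was 0.034 for the overexpression libraries fitted alone and 0.073 for the siRNA libraries. Fitted alone, the experiments gave 1381 calls among 9660 genes with MGA and 4135 among 11045 with siMYC. The script was tested on simulated data.

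The genes and lists were chosen with earlier results of these data known. Named genes are the 10 members, the 3 called genes of smallest p in each list and comparison, and the 2 nearest patterns of YAP1, CTGF, CYR61 and AXL (mean log2 CPM of at least 3, prior count 2). Alternatives were other size factors, no filter, DESeq2 1.42.0, limma-trend (limma 3.58.1) on log2(TPM + 1), separate fits, a replicate block, omission of the MGA gene and omission of each library. RefSeq sequences and GENCODE v29 are on GRCh38, and no coordinate of the hg19 tables was used.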

Additional observations from a re-analysis of the deposited data

Results flagged for a closer look

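For 4 of the 10 genes the response to MGA differed from the response to siMYC by the interaction test in edgeR. The difference on the log2 scale was 1.41 for AMOTL2, which was higher in 2 of 2 MGA libraries and lower in 2 of 2 siMYC libraries than their controls. It was 0.70 for AXL, with the same arrangement. It was 0.74 for AJUBA, which was higher in 2 of 2 MGA libraries, with siMYC libraries inside the range of siNC. It was 0.66 for CYR61, which was lower in 2 of 2 siMYC libraries, with MGA and empty vector libraries that overlapped. The control levels of CYR61, AJUBA and AMOTL2 differed between the experiments, and the part of that difference was not tested.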

How the results depend on the processing

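Of the 10 genes, 4 were called with MGA, 5 with siMYC, 4 for the difference and 6 between the controls. With library sizes alone 2 were called with MGA. DESeq2 called 3 with MGA, 2 with siMYC, 2 for the difference and 4 between the controls. Limma-trend on log2(TPM + 1) called 0 with MGA, 0 with siMYC, 0 for the difference and 3 between controls. With a library left out, 2 to 4 were called with MGA, 3 to 5 with siMYC, 2 to 4 for the difference and 4 to 7 between the controls.

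Over all genes, edgeR called 1005 with MGA, 4370 with siMYC, 2076 for the difference and 3742 between controls. DESeq2 called 358, 1971, 827 and 1876, and limma-trend on TPM 82, 1245, 347 and 1691. With a library left out the counts were 402 to 1121, 3299 to 4315, 1309 to 1937 and 2614 to 3932. The MGA count was 402 to 474 when the omitted library was of the MGA or empty vector group, and for the difference it was 1373 without empty vector B and 1309 without MGA A. The split of higher to lower calls with MGA was 556 to 449, 387 to 628 with upper-quartile factors and 300 to 821 with library sizes alone. For the difference it was 1154 to 922, against 804 to 1188 (upper-quartile factors), 714 to 1357 (library sizes alone) and 892 to 1101 (MGA gene omitted). CRIM1, a signature target, was called lower with siMYC in edgeR (-0.23, adjusted p = 0.039). That call was lost with the same sign in 6 of the other settings and held in 2. On TPM the log2 fold change was 0.13 and was not called, and the cause was not tested. With a library left out it was -0.32 to -0.16. No log2 fold change of the 10 genes changed sign while called. The order of TPM levels was the same in FPKM in each group.

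Replicates share only a letter across groups. With the letter as a replicate block, 4 of the 10 genes were called with MGA, 5 with siMYC and 4 for the difference, and 1176, 4657 and 2292 of all genes. The differences between A and B correlated at 0.0065 across genes between the overexpression groups and at 0.26 between the siRNA groups. No such block was made between the controls, whose letters come from separate experiments. Low depth limits ANKRD1, LATS2 and CTGF most.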
